A study of Mus musculus with 8 samples.

Results

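The genes described here are the D-type cyclins and the regulators that act with them in the G1 phase of the cell cycle. The list held 10 genes, Ccnd1, Ccnd2, Ccnd3, Cdk4, Cdk6, Cdkn1a, Cdkn1b, Cdkn1c, Rb1 and Rbl1. A gene was kept where the array annotation tied a probe set to its symbol alone, which held for 9 of the 10, read by 10 probe sets among 19938 genes in all. Cdkn1a, the p53-responsive inhibitor p21, shared its probe set with another symbol and was not analysed here. The list was selected on results that included the VEGF-labelled minus control differences of these arrays, in which Ccnd1 was among the genes most separated between the groups. Group differences of these genes are therefore given as a description, without a test.

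Cortical RNA of mouse embryos at embryonic day 16 was measured on 8 whole-transcript Affymetrix arrays, all from a mixed strain background. The VEGF-labelled group held 4 arrays of bitransgenic embryos carrying GFAP-tTA, a tetracycline-controlled transactivator driven by the promoter of the glial gene Gfap, together with TetO-VEGF-A164, a responder transgene for an isoform of the vascular growth factor VEGF-A. The control group held 4 arrays of embryos described as wild type and as lacking the responder transgene. Whether these embryos carried the transactivator, how the transgene was switched on and whether embryos were pooled are not stated in the labels, so the p-values below measure only the spread between these arrays, which may be technical.

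Each value is the deposited log value, read here as log2, relative to the median of its probe set over the 8 arrays. Such values keep no absolute level, so the genes cannot be ranked by abundance and the presence of cortical markers cannot be checked. Array medians lay between -0.0091 and 0.0154, with an interquartile range from 0.061 to 0.142 that was widest in VEGF 2. Xist gave a female pattern in 2 VEGF-labelled arrays, VEGF 2 and VEGF 3, and in 1 control array, control 3. Vegfa, the gene of the transgene, overlapped between the groups, with a difference of 0.053 (SE 0.051), and so does not check the labels. In limma's fit of all 19938 genes, 0 (0%) had an adjusted p under 0.05, the smallest being 0.219. Unadjusted, 2484 genes had a p under 0.05. Without VEGF 4, 10 genes passed after adjustment, and the unadjusted count was 1526 without control 1 and 1627 without control 4.

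D-type cyclins couple growth factor signals to the cell cycle. They bind and activate the kinases Cdk4 and Cdk6, which phosphorylate the retinoblastoma family of pocket proteins and so release E2F transcription factors that switch on the genes of S phase. The Cip/Kip proteins inhibit cyclin-Cdk complexes and favour exit from the cycle. In the embryonic cortex these genes act in radial glia and intermediate progenitors, whose G1 phase lengthens as neurogenesis proceeds.

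Promoter sequences of the RefSeq annotation (GRCm38.p6), 250 bases before to 50 after a transcription start, were held for 5 of the 9 measured genes. Those of Rbl1, Cdk6 and Cdk4 are shown because these genes had the highest correlations with the S-phase genes across arrays, of which those of Rbl1 and Cdk4 passed the test given further on. Capitals mark matches to an E2F-type motif, TTTNNCGC, searched on both strands (GCGNNAAA on the other). Sequences run 5′ to 3′ on the strand of the gene. The Rbl1 promoter lies on the minus strand at chr2:157204485-157204784, that of Cdk6 on the plus strand at chr5:3343643-3343942 and that of Cdk4 on the plus strand at chr10:127063285-127063584.
Rbl1: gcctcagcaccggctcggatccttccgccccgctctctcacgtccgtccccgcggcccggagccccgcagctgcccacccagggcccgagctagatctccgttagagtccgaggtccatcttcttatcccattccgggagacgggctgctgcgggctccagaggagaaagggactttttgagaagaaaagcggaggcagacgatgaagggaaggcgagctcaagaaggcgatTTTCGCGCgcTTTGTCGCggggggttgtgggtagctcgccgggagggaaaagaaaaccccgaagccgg
Cdk6: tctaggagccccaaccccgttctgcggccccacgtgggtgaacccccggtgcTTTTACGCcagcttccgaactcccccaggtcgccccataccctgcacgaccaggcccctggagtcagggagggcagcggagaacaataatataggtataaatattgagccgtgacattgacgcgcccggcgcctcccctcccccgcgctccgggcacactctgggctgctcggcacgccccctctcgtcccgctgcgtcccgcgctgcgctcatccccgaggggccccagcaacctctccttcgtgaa
Cdk4: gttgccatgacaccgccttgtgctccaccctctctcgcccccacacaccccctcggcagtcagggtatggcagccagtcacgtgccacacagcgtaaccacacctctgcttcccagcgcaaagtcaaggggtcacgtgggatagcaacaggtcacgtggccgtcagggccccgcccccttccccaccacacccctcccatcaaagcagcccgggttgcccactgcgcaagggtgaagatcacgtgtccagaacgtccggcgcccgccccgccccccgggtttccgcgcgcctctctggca

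Rbl1 held 2 matches, TTTCGCGC and TTTGTCGC, whose first bases lay at -18 and -8 from the transcription start, the base before the start being -1. Cdk6 held 1 match, TTTTACGC, with its first base at -198. Cdk4 held 0 matches to this motif in the same window, and so did the Cdkn1b promoter and both Ccnd3 promoters. Among 32851 promoters of the same length, 5.17% held at least 1 match. The GC box GGGCGG, read on both strands, matched 3 times in Cdk4, 1 time in Rbl1 and 0 times in Cdk6, beside 35.7% of all promoters with a match. A match describes letters in this window and does not show binding.

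Among the 9 genes, Ccnd1 alone separated the groups in every array. Its mean was higher in the VEGF-labelled arrays, at 1.21-fold if the logarithm is to base 2. The other 8 genes overlapped, with differences between -0.026 for Rb1 and 0.15 for Rbl1. The median difference of the 9 genes was 0.050, beside -0.010 for all genes tested. In 8 of the 9 the VEGF-labelled mean was above the control mean, beside 43.3% of all genes. Non-overlap with the VEGF-labelled arrays higher was seen in 2.13% of all genes and with these arrays lower in 4.71%, together 6.84%. As the list was chosen with this contrast known, nothing is read from these shares.

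**Figure D1:**
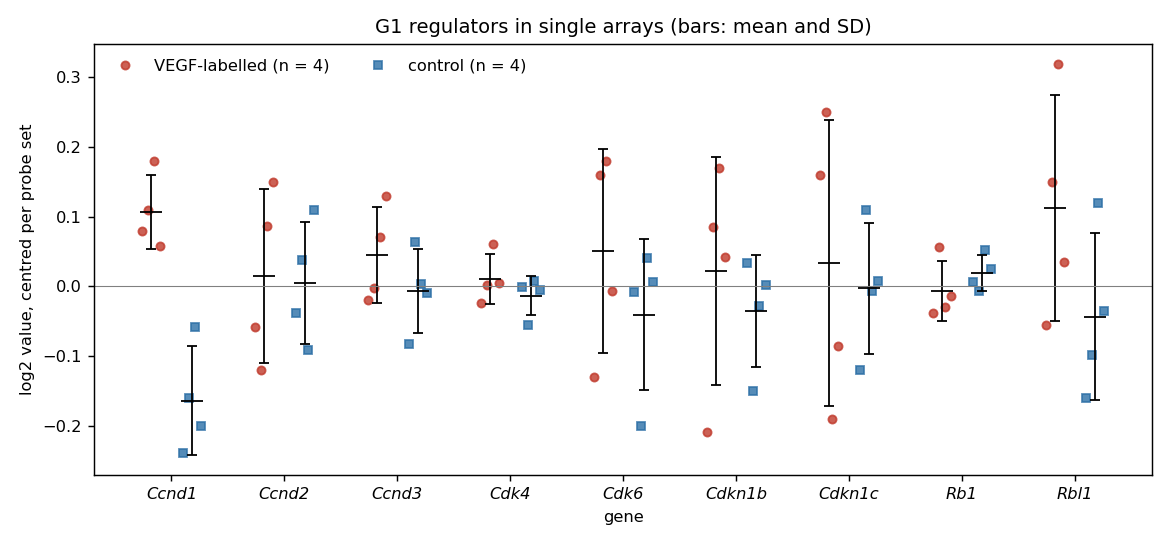
Each point is 1 array, with the centred log2 value on the vertical axis and the 9 measured genes along the horizontal axis. VEGF-labelled arrays (circles) stand left of control arrays (squares), and bars give the mean and SD of 4 arrays. The groups are apart in Ccnd1, with its lowest VEGF-labelled array at 0.058 and its highest control array at -0.058, and overlap in the other 8.

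Ccnd1, encoding cyclin D1, the D cyclin most tied to growth factor and Wnt signalling, had 0.080, 0.11, 0.18 and 0.058 in VEGF 1 to VEGF 4, against -0.24, -0.16, -0.058 and -0.20 in control 1 to control 4. All 4 VEGF-labelled arrays lay above all 4 control arrays, and control 3 was the control array nearest to them. The means were 0.11 ± 0.055 in the VEGF-labelled arrays and -0.16 ± 0.078 in control (SD, n = 4 each), and they differed by 0.27 (SE 0.048). With each array left out in turn, the difference lay between 0.25 and 0.31. With the sex index as a covariate it was 0.25, and without the 3 arrays of female pattern 0.27. The within-group spread of Ccnd1, a residual SD of 0.068, ranked at percentile 42.0 among all genes.

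Ccnd2, encoding cyclin D2, whose mRNA is known to collect in the basal end-feet of radial glia, had -0.058, -0.12, 0.087 and 0.15 in VEGF 1 to VEGF 4, against -0.038, 0.038, -0.091 and 0.11 in control 1 to control 4. The VEGF-labelled arrays held both the highest and the lowest value, and the difference was 0.0082 (SE 0.069), or -0.037 without VEGF 4 and 0.054 without VEGF 2. Ccnd3, encoding cyclin D3, had -0.019, -0.0030, 0.071 and 0.13 in VEGF 1 to VEGF 4, against -0.083, 0.064, 0.0030 and -0.0098 in control 1 to control 4. Its groups overlapped, although VEGF 3 and VEGF 4 stood above every control array, and the difference was 0.050 (SE 0.046), or 0.023 without VEGF 4 and 0.024 without control 1. Whether Ccnd1 differed from its paralogs in its group difference was not tested.

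The catalytic partners overlapped as well. Cdk4 had -0.024, 0.0014, 0.061 and 0.0047 in VEGF 1 to VEGF 4, against -0.0014, -0.055, 0.0072 and -0.0050 in control 1 to control 4. Its spread was narrow, with a residual SD of 0.032 at percentile 6.7 of all genes, and VEGF 3 was the highest array. The difference was 0.024 (SE 0.034), or 0.0078 without VEGF 3 and 0.011 without control 2. Cdk6 had -0.13, 0.16, 0.18 and -0.0062 in VEGF 1 to VEGF 4, against -0.0088, -0.20, 0.040 and 0.0062 in control 1 to control 4. Here VEGF 2 and VEGF 3 were high while VEGF 1 and control 2 were low, and the residual SD of 0.13 ranked at percentile 84.6. The difference of 0.090 (SE 0.078) was 0.049 with the sex index as a covariate and -0.0020 without the 3 arrays of female pattern. With single arrays left out it ranged from 0.038 without control 2 to 0.15 without VEGF 1.

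**Figure D2:**
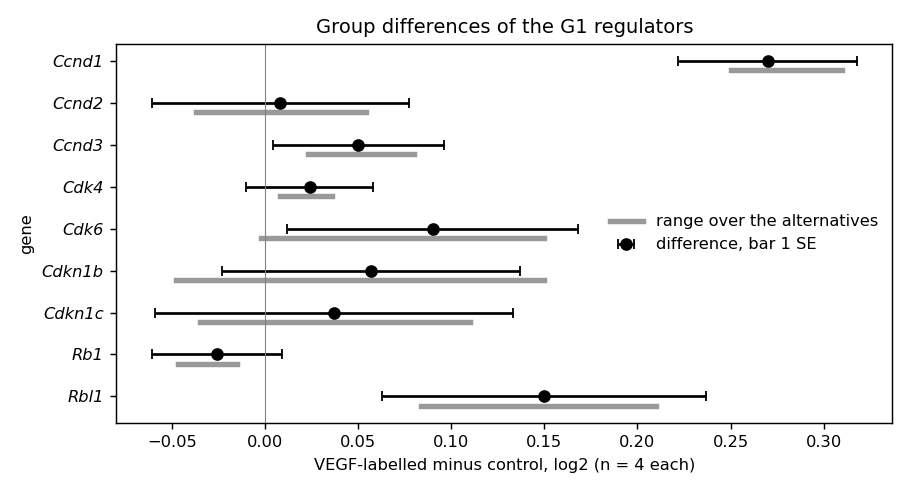
Points give the VEGF-labelled minus control difference in log2 units for each gene, and black bars 1 SE of the limma fit (n = 4 each). Grey bars give the lowest and highest value over the alternatives, which include leaving out arrays and, for Cdkn1b, each probe set alone. Ccnd1 lies at 0.27, Rbl1 at 0.15 and Rb1 at -0.026, and the grey bars of Ccnd2, Cdk6, Cdkn1b and Cdkn1c cross 0.

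The Cip/Kip inhibitors showed wide spread and no separation. Cdkn1b, encoding p27, which holds progenitors out of the cycle, had gene means of -0.21, 0.085, 0.17 and 0.042 in VEGF 1 to VEGF 4, against 0.034, -0.15, -0.028 and 0.0022 in control 1 to control 4. VEGF 1 was the lowest array and the other VEGF-labelled arrays lay above every control array. The difference was 0.057 (SE 0.080). Without VEGF 1 the groups did not overlap and the difference was 0.14, whereas it was 0.0062 without VEGF 3, 0.019 without control 2 and 0.036 without VEGF 2. Without VEGF 1, 11.6% of all genes did not overlap.

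Cdkn1b was read by 2 probe sets. Probe set 10542317 had -0.29, 0.16, 0.38 and 0.044 in VEGF 1 to VEGF 4, against 0.045, -0.26, -0.044 and -0.068 in control 1 to control 4. Probe set 10542310 had -0.14, 0.012, -0.031 and 0.041 in VEGF 1 to VEGF 4, against 0.024, -0.042, -0.012 and 0.072 in control 1 to control 4. Values of 10542317 spanned 0.67 over the 8 arrays and those of 10542310 spanned 0.21. The differences between groups were 0.15 (SE 0.130) for 10542317 and -0.040 (SE 0.047) for 10542310, and whether these differ was not tested. Which part of the transcript each probe set reads was not examined. With the group means taken off, 10542317 ran alongside Cdk6 over the 8 arrays (Pearson's r = 0.91, a description), whereas 10542310 did so less closely (r = 0.59), and the probe sets had r = 0.61 with each other.

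**Figure D3:**
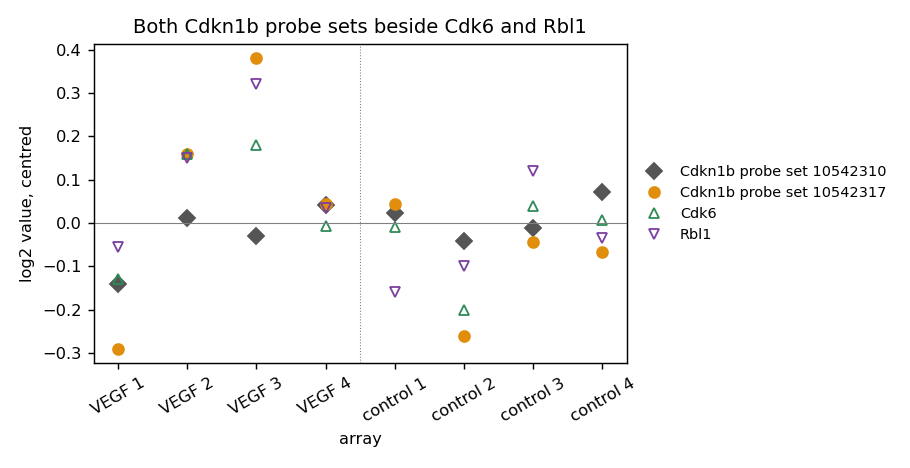
Centred log2 values are plotted for the 8 arrays, VEGF-labelled left of the dotted line and control right of it, for both Cdkn1b probe sets (filled symbols) and for Cdk6 and Rbl1 (open symbols). Probe set 10542317 reaches 0.38 in VEGF 3 and -0.29 in VEGF 1, while 10542310 is at -0.031 and -0.14 in the same arrays.

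Cdkn1c, encoding p57, an imprinted inhibitor that promotes cell cycle exit of cortical progenitors, had 0.16, 0.25, -0.19 and -0.086 in VEGF 1 to VEGF 4, against -0.12, 0.11, -0.0071 and 0.0071 in control 1 to control 4. The VEGF-labelled arrays divided, with VEGF 1 and VEGF 2 above every control array and VEGF 3 below them all. The mean was 0.033 ± 0.21 in the VEGF-labelled arrays and -0.0039 ± 0.096 in control (SD, n = 4 each), and they differed by 0.037 (SE 0.096), or by -0.035 without VEGF 2 and 0.11 without VEGF 3. Its residual SD of 0.16, at percentile 91.9 of all genes, was the widest of the 9 genes. VEGF 1, VEGF 2 and control 2, the arrays with the highest Cdkn1c, also had the highest means of the thalamus and hippocampus marker list, at 0.56, 0.49 and 0.22, while the other arrays lay between -0.32 and 0.10. They were likewise the highest of the choroid plexus list, at 0.18, 0.15 and 0.25, with the other arrays between -0.20 and -0.019. The share of all genes with the same highest arrays was not computed, so the match cannot be called particular to these markers. With group means taken off, 328 of 19937 genes (1.65%) had a Pearson's r above 0.9 with Cdkn1c. The part of either tissue in the Cdkn1c values was not tested.

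Of the pocket proteins, Rb1, the retinoblastoma protein, had the narrowest range of the 9 genes, 0.094 over the 8 arrays. It had -0.038, 0.056, -0.030 and -0.014 in VEGF 1 to VEGF 4, against 0.0062, -0.0062, 0.052 and 0.025 in control 1 to control 4. VEGF 2 was the highest array, and the other 3 VEGF-labelled arrays lay below every control array. The difference was -0.026 (SE 0.035), and without VEGF 2 the groups did not overlap, with a difference of -0.047, as was the case for 9.86% of all genes. Without control 3 the difference was -0.015, and without VEGF 1 it was -0.016.

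Rbl1, encoding p107, a pocket protein whose own gene is a known E2F target, had -0.056, 0.15, 0.32 and 0.035 in VEGF 1 to VEGF 4, against -0.16, -0.099, 0.12 and -0.035 in control 1 to control 4. VEGF 2 and VEGF 3 lay above every control array, VEGF 1 and VEGF 4 within the control range, and the difference was 0.15 (SE 0.087). The 3 arrays of female pattern, VEGF 2, VEGF 3 and control 3, were the 3 highest in Rbl1 and in Cdk6, which held for 4.92% of all genes. With the sex index as a covariate the Rbl1 difference was 0.098, and without those arrays 0.086. Leaving out VEGF 3 alone gave 0.084, and leaving out VEGF 1 or control 3 gave 0.21.

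The genes were next set against the S-phase genes that E2F drives, a measure outside the group comparison once the group means are taken off. The list held helicase subunits, nucleotide enzymes and licensing factors, none of them among the 9 genes, and 16 of 17 were measured. Its mean was -0.031, 0.11, 0.33 and 0.014 in VEGF 1 to VEGF 4, against -0.11, -0.13, 0.070 and -0.036 in control 1 to control 4. VEGF 3 stood highest, and control 3 was the highest control array. Relations were computed for all 9 genes over the 8 arrays, with the group means taken off and the arrays permuted within groups (576 arrangements, two-sided).

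Rbl1 followed this list most closely, at a Pearson's r of 0.97 (exact p = 0.00347 by permutation, or 0.0312 adjusted over the 9 relations). Its Spearman's rho was 0.90 (exact p = 0.0174, or 0.0781 adjusted). With VEGF 3 and control 3 left out, which lay farthest from the median of the list, r was 0.91. Cdk4 had r = 0.87 (exact p = 0.00694, or 0.0312 adjusted), which was 0.60 without those arrays, and rho = 0.79 (exact p = 0.0295, or 0.0885 adjusted). Cdk6 had r = 0.81 (exact p = 0.0226, or 0.0508 adjusted), which was 0.91 without them, and rho = 0.90 (exact p = 0.0174, or 0.0781 adjusted). Rbl1 and Cdk4 thus passed 0.05 after adjustment in Pearson's r, and no gene passed in Spearman's rho. The share of all genes with as high an r was not computed, so the relation cannot be called particular to these genes. With group means taken off, 325 of 19937 genes (1.63%) had r above 0.9 with Rbl1. The 9 genes and the S-phase list were both chosen with earlier results of these data known. These permutation p-values are therefore given as a description.

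Ccnd1 had r = 0.79 with the list (exact p = 0.0208, or 0.0508 adjusted) and rho = 0.60 (exact p = 0.125, or 0.281 adjusted). Its r was 0.20 without VEGF 3 and control 3, so this relation rested on those arrays. The other 5 genes had r between -0.46 for Cdkn1c and 0.70 for Cdkn1b, with adjusted exact permutation p between 0.238 and 0.967. Without VEGF 3 and control 3, r was 0.95 for Rb1 in place of 0.26 and 0.24 for Cdkn1c in place of -0.46, while it was 0.76 for Cdkn1b, -0.11 for Ccnd2 and -0.17 for Ccnd3. VEGF 3 and control 3 are both of female pattern, and so is VEGF 2, which was kept in the values without them. VEGF 3, VEGF 2 and control 3 were also the highest arrays of the list, at 0.33, 0.11 and 0.070. The part of sex in these relations was not tested.

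**Figure D4:**
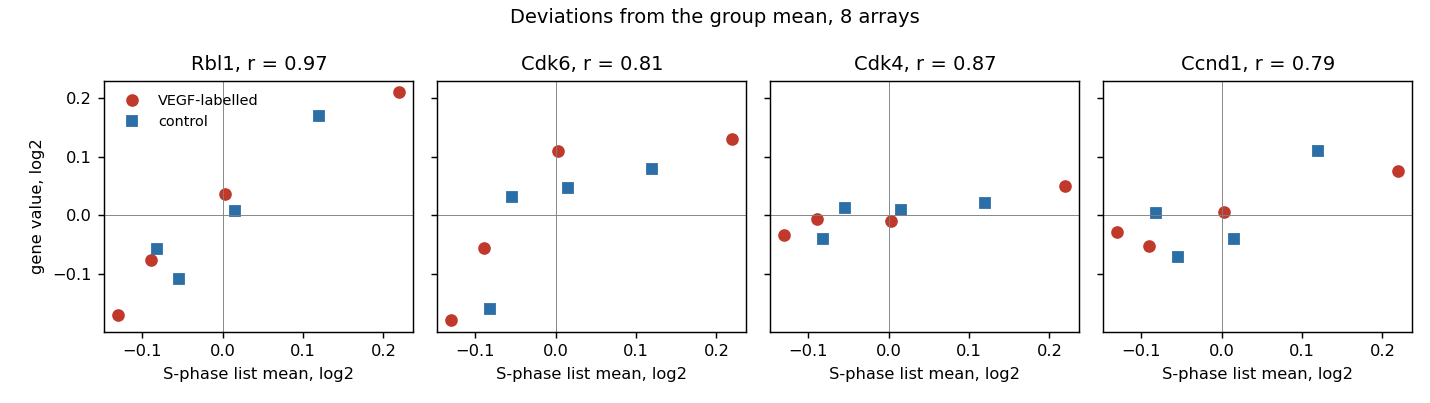
Each panel plots 1 gene (vertical axis, log2) against the mean of the S-phase list (horizontal axis, log2) in the 8 arrays, both as deviations from the group mean, with VEGF-labelled arrays as circles and control arrays as squares. Rbl1 follows the list across its range (r = 0.97), Cdk4 does so over a narrow range, and in Ccnd1 the 2 arrays at the right carry the relation.

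Among the 9 genes themselves, the profiles with group means taken off ran together for Cdk6 and Cdkn1b (r = 0.90), Ccnd1 and Rbl1 (r = 0.86), Cdk4 and Cdk6 (r = 0.85) and Cdk4 and Cdkn1b (r = 0.84). Cdkn1c ran against Cdk4 (r = -0.74). Ccnd1 and Ccnd2 had r = -0.26. These values are descriptions over 8 arrays, and genes read on the same array share its RNA sample and scale. Over all genes, the 3 profiles most like that of Ccnd1 by the same measure were Cbx5, encoding the heterochromatin protein HP1 alpha, with r = 0.977, Prdm4, a zinc finger protein, with r = 0.974, and Mamld1 with r = 0.974. Their own differences between groups were 0.055, 0.027 and 0.090, and 65 of 19937 genes had r above 0.9 with Ccnd1.

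The wider G1 network was described through 7 lists of other genes, with 74 of 78 measured. None of the 74 passed limma's adjusted p of 0.05 in either direction, like all genes tested. Their VEGF-labelled mean was higher in 59 (79.7%, beside 43.3% of all genes) and lower in 15. The median difference was 0.12 beside -0.010 for all genes. The groups did not overlap in 6 genes that were higher (8.11%) and 3 that were lower (4.05%). The corresponding shares of all genes were 2.13% and 4.71%. As these lists were chosen with earlier results of these data known, nothing is read from these shares.

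Inhibitors of the INK4 family, which bind Cdk4 and Cdk6 directly, were mixed, with 2 higher and 2 lower of 4. Cdkn2c differed by 0.13 (SE 0.113) and Cdkn2d by 0.022, against -0.070 for Cdkn2a and -0.058 for Cdkn2b. The median of -0.018 was 0.0040 without VEGF 2. In the list of E2F factors and their partners 11 of 15 genes were higher, with a median of 0.11 that was 0.049 without VEGF 3 and 0.056 without the arrays of female pattern. E2f3, an activating E2F, had 0.11, 0.30, 0.41 and -0.0033 in VEGF 1 to VEGF 4, against -0.17, -0.25, 0.021 and -0.057 in control 1 to control 4. Only VEGF 4 lay within the control range of E2f3, and the difference was 0.32 (SE 0.094, limma adjusted p = 0.258). Lin9, a subunit of the complex that joins pocket proteins or Myb to cell cycle promoters, differed by 0.17, and its fellow subunits Lin37 and Lin52 by -0.084 and -0.077. Lin37 was lower without overlap (SE 0.035, limma adjusted p = 0.379).

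Cyclins E and A, Cdk2 and the Cdk-activating kinase act after the D cyclins, and 7 of their 8 genes were higher, with a median of 0.15 that was 0.084 without the arrays of female pattern. Ccne2, a cyclin E, differed by 0.24 (SE 0.108), its kinase Cdk2 by 0.20 (SE 0.067) and Cdk7, of the activating kinase, by -0.068. Among 9 genes for the turnover of p27 and D cyclins, 6 were higher, with a median of 0.010 that lay between -0.0012 without control 2 and 0.028 without control 1. Cks1b, a cofactor of the ligase that marks p27 for destruction, had 0.014, 0.23, 0.33 and 0.095 in VEGF 1 to VEGF 4, against -0.19, -0.16, -0.014 and -0.041 in control 1 to control 4. The groups of Cks1b did not overlap, and the difference was 0.27 (SE 0.072, limma adjusted p = 0.243). Skp2, the subunit of that ligase that recognises p27, differed by 0.15, while the F-box genes Fbxo31 and Fbxo4 differed by -0.13 and -0.074. The groups of Fbxo31 did not overlap either, with the VEGF-labelled arrays lower (SE 0.040, limma adjusted p = 0.261).

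Genes that respond to p53, which also controls Cdkn1a, had 10 of 13 measured members higher, of 16 listed, with a median of 0.067 that was 0.041 without control 1. Eda2r, a receptor of the TNF receptor family, had 0.054, 0.30, 0.20 and 0.015 in VEGF 1 to VEGF 4, against -0.63, -0.27, -0.015 and -0.67 in control 1 to control 4. The groups were apart, and control 3, of female pattern, lay close to the VEGF-labelled arrays while control 1 and control 4 lay far below. Eda2r differed by 0.54 (SE 0.141) and Ccng1, encoding cyclin G1, by 0.29 (SE 0.074), both with limma adjusted p = 0.243. The Eda2r difference was 0.46 with the sex index as a covariate and 0.56 without the arrays of female pattern. Mdm2, the ubiquitin ligase for p53, went the other way without overlap, at -0.11 (SE 0.037, adjusted p = 0.289), and Plk2, a polo-like kinase, differed by -0.27 (SE 0.137).

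Of the Myc factors and Wnt feedback genes, 7 of 9 were higher, with a median of 0.059 that was 0.024 without VEGF 1. Tcf7l2 differed by 1.12 (SE 0.544) and Lef1 by 0.36 (SE 0.109), both Wnt effectors that also belong to the thalamus and hippocampus markers. Tcf7l2 was at 1.65 in VEGF 1 and 1.59 in VEGF 2 but at -0.74 in VEGF 4, against 0.68 in control 2 and -0.86 to -0.47 in the other control arrays. Myc differed by -0.18 (SE 0.064) and Mycl by -0.12 (SE 0.045). Lastly, all 16 measured S-phase genes had a higher mean in the VEGF-labelled arrays, with a median of 0.15, led by the helicase subunit Mcm3 at 0.26 (SE 0.102) and the ribonucleotide reductase subunit Rrm2 at 0.21 (SE 0.100). The groups overlapped in all 16. Without VEGF 3 the median of the list was 0.071, and without the arrays of female pattern 0.084.

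**Figure D5:**
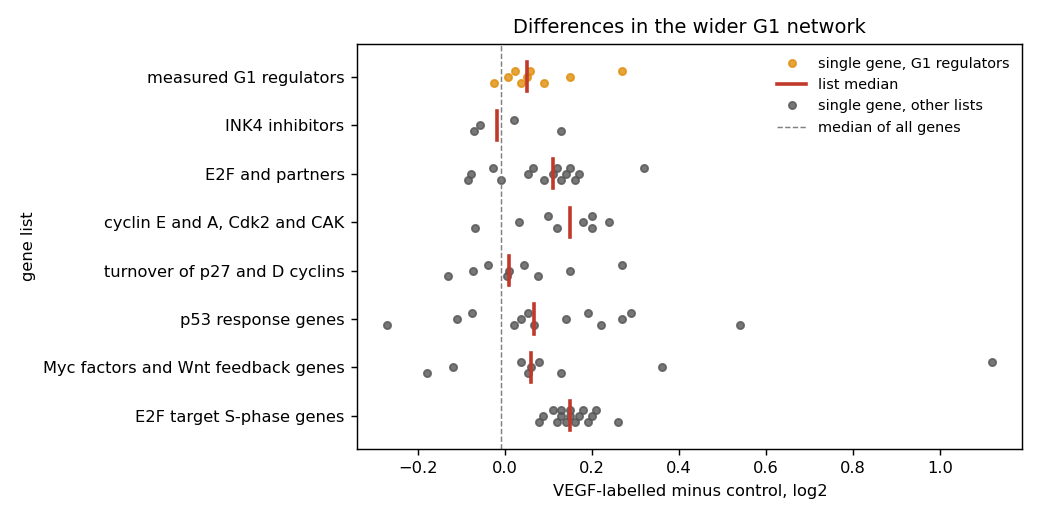
Points are single genes placed by their VEGF-labelled minus control difference in log2 units, by list, with the measured G1 regulators at the top. Red marks give list medians and the dashed line the median of all genes, -0.010. All points of the S-phase list lie above 0, while the INK4 list has a median of -0.018.

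Cell type marker lists differed in how far their values lay apart between the groups, and no marker passed the test over all genes. Of all genes, 43.3% had a higher VEGF-labelled mean. The mitotic list had 11 of 11 measured genes higher, its mean lying between -0.032 and 0.26 in the VEGF-labelled arrays and between -0.18 and 0.061 in control. Radial glia markers had 8 of 11 higher. Their means did not overlap, between 0.014 and 0.12 in the VEGF-labelled arrays and between -0.099 and -0.0054 in control. Intermediate progenitor markers had 3 of 7 higher and a median difference of -0.017, with means between -0.14 and 0.15 in the VEGF-labelled arrays and between -0.038 and 0.084 in control. Projection neuron markers were lower in 7 of 7 measured, with means between -0.46 and 0.045 in the VEGF-labelled arrays and between -0.0069 and 0.25 in control. Markers of interneurons and ventral forebrain were lower in 9 of 9. Their means did not overlap either, between -0.74 and -0.15 in the VEGF-labelled arrays and between 0.11 and 0.28 in control. Endothelial markers were higher in 3 of 9, between -0.27 and 0.063 in the VEGF-labelled arrays and between -0.19 and 0.097 in control. Thalamus and hippocampus markers were higher in 7 of 8, with a median difference of 0.36, their means lying between -0.18 and 0.56 in the VEGF-labelled arrays and between -0.32 and 0.22 in control. Erythroid markers were higher in 7 of 7 measured, with a median of 0.31 that was 0.17 without VEGF 1, and their means lay between -0.011 and 0.71 in the VEGF-labelled arrays and between -0.13 and -0.010 in control. In bulk tissue, more cells of a type and more RNA per cell cannot be told apart, and the part of cell composition in the Ccnd1 difference was not tested.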

How the data were processed

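Total RNA of embryonic cortex was extracted with a Qiagen RNeasy kit and 120 ng was labelled for whole-transcript arrays, per the labels' protocols. The authors deposited 1 table of log values, taken as log2 from their range, for 28853 probe sets on 8 arrays, each probe set centred on its median. Affymetrix Expression Console and build mm8 are named in the submitters' processing notes. How background was corrected and probes were summarised is not stated there.

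Of the probe sets, 21789 had 1 symbol, 1621 had several and 5443 none here. Entrez identifiers linked 21698 of the first to current symbols in the RefSeq table of GRCm38.p6, and probe sets of a gene were averaged. Groups came from the sample titles. The main test was limma 3.58.1 (R 4.3.3), lmFit and eBayes without covariates, with Benjamini-Hochberg adjustment over 19938 genes and a threshold of 0.05, and it was tested on simulated data. Residual SDs and single-gene SEs are those of this fit. Relations used exact permutation within groups (scipy 1.17.1). The sex index is Xist minus the mean of 4 Y-linked genes, and a female pattern is an Xist value above 2.

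The members and gene lists were chosen with earlier results of these data known. Of each other list, the text names the 2 genes with the largest difference in each direction, and the 3 genes most like Ccnd1 exclude genes named by clone. The number of arrays limits the precision.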

Additional observations from a re-analysis of the deposited data

Results flagged for a closer look

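Of 80 sets of 4 arrays examined for a value far from the other 3, 1 stood out, where chance alone flags about 1 in 20. Lef1, a transcription factor of Wnt signalling, was at 0.074 in control 2, against -0.24 to -0.19 in the other control arrays. None of the 9 measured G1 regulators had such an array.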

How the results depend on the processing

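The differences of the 9 measured G1 regulators moved by less than 1 within-group SD under all 16 alternatives and with each Cdkn1b probe set alone, 146 comparisons in all. This limit is easily met. The replicate block, the robust prior and the t-test leave a difference unchanged by construction. Leaving out a single array moves a group mean by only a fraction of that array's deviation. The signs and ranges below therefore tell more. Ccnd1 lay between 0.25 and 0.31, and Ccnd3, Cdk4, Rbl1 and Rb1 kept their signs. Ccnd2 changed sign in 4 alternatives (lowest -0.037), Cdkn1c in 3 (lowest -0.035), Cdkn1b in 2 (lowest -0.048) and Cdk6 in 1, without the arrays of female pattern (-0.0020). Regulators whose groups did not overlap numbered 1 to 2 of 9 (11.1% to 22.2%) with each array left out, beside 8.32% to 13.7% of all genes. Cdkn1b joined Ccnd1 without VEGF 1, where 11.6% of all genes did not overlap. Rb1 joined Ccnd1 without VEGF 2, where the share was 9.86%. Without the 3 arrays of female pattern, an alternative chosen after the data were seen, there were 2 of 9 (22.2%), Ccnd1 and Rb1, beside 23.9% of all genes.

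Over all genes, 0 to 10 passed an adjusted p of 0.05 with each array left out, and 0 under every other alternative. The t-test that the series text names gave 2114 genes unadjusted and 0 after Benjamini-Hochberg adjustment. In limma the count at an unadjusted p of 0.05 was 1526 to 2881 with each array left out and 1583 without the arrays of female pattern. Genes whose groups did not overlap numbered 1659 to 2732 with each array left out and 4760 without the arrays of female pattern, as fewer arrays overlap less often by construction. With the replicate number as a block, 0 genes passed after adjustment and 2649 at an unadjusted p, against 2484 without it. The numbers were not taken as pairs because the series text names an unpaired comparison. Deviations of same-numbered arrays had r of 0.052, -0.130, 0.454 and 0.301, which does not settle whether they are pairs. As 0 genes passed with or without the block, the adjusted calls cannot settle it. Centred values keep no signal over background, so dim probe sets could not be filtered out.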
